A study of Homo sapiens with 7 samples.

Results

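Natural antisense transcripts are RNAs made from the DNA strand opposite a known gene, often starting near that gene's own start or overlapping its body. They are mostly long non-coding RNAs, and some are known to silence, stabilise or share a promoter with the sense gene whose name they carry. Others serve mainly as hosts of small nucleolar RNAs (snoRNAs), which guide the chemical modification of ribosomal RNA and are cut from the introns of the host. The array used here reads these transcripts strand by strand, since labelling starts from oligo-dT and each probe matches 1 strand only.

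The transcripts described are the 131 gene names on the array that end in -AS and 1 digit, out of 36337 gene names in all, and they are read by 170 of the 50599 non-control probes. The study compared aneuploid human cell lines with their diploid parents, and set the changes beside those of cells under several stresses. The samples described here are the bafilomycin A1 arm of that study. Bafilomycin A1 inhibits the vacuolar proton pump of lysosomes and endosomes. The cells were HCT116, derived from a human colon carcinoma with a near-diploid karyotype, and all of this arm carried the histone H2B fused to GFP. The 4 replicate samples had received 10 nM bafilomycin A1 for 30 h, and 100 ng of RNA from each was labelled. The labels give 10% serum, and the methods state another concentration. Each sample was hybridised to 1 single-colour array, all 4 on 1 slide. Untreated cells (3 samples) were not analysed here. The values describe treated cells, and no effect of bafilomycin A1 can be read from them. Nothing in the labels says that the 4 samples were separate cultures, so the spread between arrays may be partly technical.

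On the 4 arrays, 55.6 to 60.4% of non-control spots were well above background, 514 to 2249 spots were outliers with the most on replicate 3, and no spot was saturated (0 on each array). Detection of a name required 1 probe or more that stood well above background on each of the 4 arrays. The level of a name is log2 of the background-subtracted signal minus the median of the array, taken over probes with a signal above 0. A level of 0 is therefore a probe as bright as that median, called the median probe below. Brightness also depends on the probe itself, so levels of different names are set out side by side as a description of probe signals and do not order the amounts of RNA. Only differences between arrays compare like with like. In bulk RNA, fewer cells that make a transcript and less of it per cell cannot be told apart. Of 8 markers of epithelial and intestinal cells, 7 were detected, led by KRT19 at a level of 11.81, KRT18 at 10.60 and EPCAM at 8.84, while VIL1 was well above background on no array. Of 8 markers of blood, endothelium and fibroblasts, 4 were detected, at levels of 2.91 for COL1A1, 0.78 for VWF, 0.57 for PTPRC and -0.34 for CD3E, and their part in the results was not tested.

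The coordinates of the probes bear out the name of the class with few exceptions. In 128 of 130 pairs the antisense probes ran in the opposite direction to the probes of the sense gene, by the hg19 (GRCh37) coordinates in the files. The nearest probes of a pair lay a median of 29.4 kb apart. The 2 exceptions were AKIRIN2-AS1 and HNRNPU-AS1, whose probes ran in the same direction as those of AKIRIN2 and HNRNPU, and the RefSeq table used here lists HNRNPU-AS1 as another name of HNRNPU itself. These 2 names are counted below as the rule takes them, although their probes do not read the opposite strand. The sense gene of MLK7-AS1 was on the array only under the symbol ZAK.

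The names are those of the array's design, and 128 of 131 could be matched to the RefSeq table of GRCh38.p14. There 35 are listed under another symbol, 22 of them under one that no longer ends in -AS. The table calls 113 of the 128 lncRNAs, 7 antisense RNAs, 4 transcribed pseudogenes and 4 protein-coding genes. FLVCR1-AS1, DNAJC3-AS1 and BSN-AS2 are now FLVCR1-DT, DNAJC3-DT and BSN-DT, where DT stands for divergent transcript, and HOXB13-AS1 is the protein-coding gene PRAC2.

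The probes that carry the main observations are printed here in the sense of the antisense transcript, 5′ to 3′. They are shown because the level of a name rests on what these 60 bases match. The first 3 names are hosts of snoRNAs. OIP5-AS1 is shown because its 2 probes read close to each other, and ADAMTS9-AS2 because its sense gene was not detected. Capitals mark AATAAA, the usual signal for polyadenylation, which 1 of these probes holds.
ZNFX1-AS1, chr20:47905716-47905775, plus strand: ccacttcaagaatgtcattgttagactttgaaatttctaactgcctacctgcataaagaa
EPB41L4A-AS1, chr5:111497889-111497948, plus strand: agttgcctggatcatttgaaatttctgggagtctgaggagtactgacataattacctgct
C17orf76-AS1, bright probe, chr17:16345210-16345270, plus strand: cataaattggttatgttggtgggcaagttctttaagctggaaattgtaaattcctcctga
C17orf76-AS1, middle probe, chr17:16344470-16344529, plus strand: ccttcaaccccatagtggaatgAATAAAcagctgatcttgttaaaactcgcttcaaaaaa
C17orf76-AS1, dim probe, chr17:16373760-16373819, plus strand: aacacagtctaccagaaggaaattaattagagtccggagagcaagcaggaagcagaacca
OIP5-AS1, upstream probe, chr15:41577459-41577518, plus strand: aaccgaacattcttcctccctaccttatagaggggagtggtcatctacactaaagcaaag
OIP5-AS1, downstream probe, chr15:41591663-41591722, plus strand: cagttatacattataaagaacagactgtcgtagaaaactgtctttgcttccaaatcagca
ADAMTS9-AS2, chr3:64997074-64997133, plus strand: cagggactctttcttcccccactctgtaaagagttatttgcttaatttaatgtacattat

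Across the 170 antisense probes, 35 (20.6%) held AATAAA or ATTAAA on the probe's own strand, beside 11.2% of all probes. Probes with and without these letters were detected at the same share, 14 of 35 and 54 of 135, which is 40.0% for both. The median GC content was 40.0% for the antisense probes and 43.3% for all probes.

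Of the 131 antisense names, 54 (41.2%, exact 95% binomial interval 32.7 to 50.2%) were detected on all 4 arrays, whereas 54.2% of all 36337 gene names were. With the scanner software's looser flag for a signal above background the shares were 64.1% (exact 95% interval 55.3 to 72.3%) and 67.5%. A further 25 were well above background on 1 to 3 arrays, and 52 on none. Their sense genes were detected more often, in 100 of 130 pairs (76.9%), which is 98 of 126 distinct sense genes because 4 sense genes have 2 antisense names each. The share for antisense names lay beside 41.4% of 133 names that start with LINC, 38.1% of 21 intronic or overlapping transcripts named -IT or -OT, and 24.6% of 8404 unnamed XLOC transcripts. The snoRNA host names that start with SNHG stood higher, at 11 of 12 (91.7%). Most antisense names had only 1 probe (77.9%, against 73.7% of all names), and the share detected was 34.3% among these and 65.5% among names with several probes. The corresponding shares of all names were 48.2% and 70.9%. When every probe of a name had to be detected, 43 antisense names passed, and the sense gene passed in 71 of 130 pairs.

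**Figure D1:**
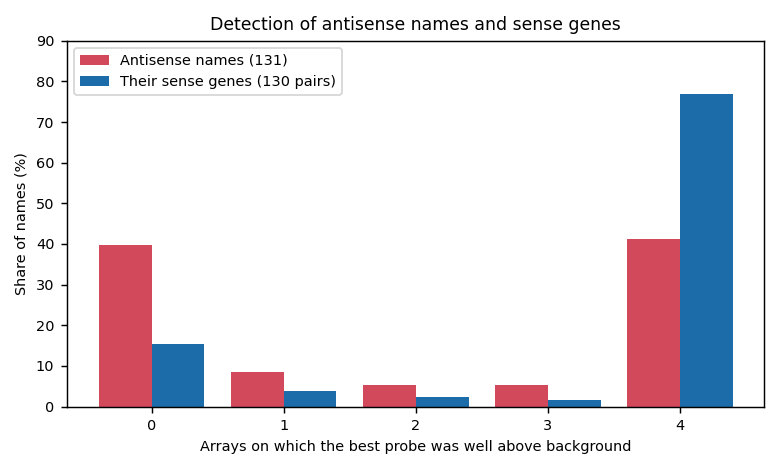
Share of names (%, vertical axis) by the number of arrays on which the best probe was well above background (horizontal axis), for 131 antisense names (red) and the sense genes of 130 pairs (blue). Antisense names fall mainly at 0 arrays (39.7%) and 4 arrays (41.2%), and sense genes mainly at 4 arrays (76.9%).

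Setting each antisense name beside its sense gene gave 49 pairs with both detected, 51 with only the sense gene, 5 with only the antisense name and 25 with neither. Antisense names were detected in 49 of 100 pairs whose sense gene was detected (49.0%) and in 5 of 30 whose sense gene was not (16.7%). Detected sense genes had a median level of 3.01 where the antisense name was detected and 2.05 where it was not.

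Grouped only by the prefix of the sense symbol, 5 of 7 names against zinc finger genes were detected. They were ZNFX1-AS1, ZBTB20-AS1, both antisense names of ZNF503, and ZNRD1-AS1. All 3 names against ubiquitin genes were detected, namely FBXL19-AS1, FBXO22-AS1 and UBAC2-AS1. Among 9 names grouped by prefix with developmental transcription factors, a group that takes in ST7 although it is not one, 4 were detected, which were HOXA11-AS1, HOXB13-AS1, ZEB1-AS1 and ST7-AS1. Of 4 names taken by the prefixes for cell cycle and repair genes, MCM3AP-AS1 and OIP5-AS1 were detected and TP73-AS1 and RAD21-AS1 were not. Only ADAMTS9-AS2 was detected of 5 names against adhesion and matrix genes, and neither MRPL23-AS1 nor SLC25A5-AS1 of the mitochondrial group was. Over all antisense names the share was 54 of 131 (41.2%), and over all gene names it was 54.2%. The groups are small, differences between them were not tested, and 90 of the 131 names belong to none of them. Prefixes do not follow function closely. The replication gene PCNA falls outside the cell cycle group, for example, and MCM3AP, of messenger RNA export, falls inside it.

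The position of the start sites could be compared for 77 pairs in the RefSeq promoter table of GRCh38.p14. In 35 of them the antisense transcript and the sense gene started within 1000 bases of each other on opposite strands, in the head-to-head arrangement known from bidirectional promoters. The antisense name was detected in 20 of these 35 (57.1%) and in 14 of the 42 others (33.3%). Among pairs whose sense gene was detected, the counts were 19 of 30 (63.3%) and 13 of 31 (41.9%). In 22 of the 35 the antisense start lay upstream of the sense start, so that the transcripts diverge, and 12 of these 22 (54.5%) were detected. In the other 13 it lay inside the sense gene, and 8 of these (61.5%) were detected. These shares are descriptions and no test of their difference was made. Detected head-to-head names included ENO1-AS1, FLVCR1-AS1, ZEB1-AS1, HOXA11-AS1, DNAJC3-AS1 and UBAC2-AS1, while FMR1-AS1, SOX21-AS1 and WWTR1-AS1 started as close to their sense genes and were not detected on all 4 arrays.

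The promoter stretch shared by such a pair is shown for ENO1, which encodes the glycolytic enzyme enolase, and for FLVCR1, a membrane transporter of haem and choline. Each line gives the 250 bases before the start of the sense gene on its own strand, from RefSeq (GRCh38.p14). Capitals mark the bases between the antisense start and the sense start, which lie 149 bases apart for ENO1 and 137 for FLVCR1.
ENO1, chr1:8878687-8878936, minus strand: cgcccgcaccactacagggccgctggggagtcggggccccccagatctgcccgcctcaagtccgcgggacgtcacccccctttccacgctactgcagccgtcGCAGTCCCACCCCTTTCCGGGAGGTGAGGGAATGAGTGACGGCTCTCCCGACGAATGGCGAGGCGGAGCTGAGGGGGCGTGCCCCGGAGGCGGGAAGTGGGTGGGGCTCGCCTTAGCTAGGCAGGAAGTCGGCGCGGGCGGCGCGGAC
FLVCR1, chr1:212858025-212858274, plus strand: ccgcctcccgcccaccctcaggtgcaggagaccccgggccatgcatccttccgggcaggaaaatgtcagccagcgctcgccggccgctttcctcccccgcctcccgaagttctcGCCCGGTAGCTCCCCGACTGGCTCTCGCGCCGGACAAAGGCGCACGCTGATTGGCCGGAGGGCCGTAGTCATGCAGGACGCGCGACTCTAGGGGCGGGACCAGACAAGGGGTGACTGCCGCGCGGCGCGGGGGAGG

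The ENO1 stretch holds 27 CG dinucleotides and the FLVCR1 stretch 29, where the median over 35116 promoter stretches of this length was 11 and 17.7% held at least 27. ENO1-AS1 had levels of 0.96, 0.98, 1.25 and 0.56 on replicates 1 to 4, and ENO1 had levels of 10.53, 10.62, 9.93 and 10.26. ENO1-AS1 was highest on replicate 3, the array on which ENO1 was lowest. FLVCR1-AS1 had levels of 2.91, 2.82, 2.71 and 2.68, and those of FLVCR1 were 4.40, 4.68, 4.64 and 4.51, so both members of this pair stayed within 0.3 on the log2 scale.

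The detected antisense names ran from a level of -1.25 to one of 9.85, with a median of 0.54. The median over all 19691 detected names was 2.30. Of the 54, 18 (33.3%) lay below the median probe of the array, against 18.1% of all detected names. The lower and upper quartiles of the antisense levels were -0.33 and 2.10.

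**Figure D2:**
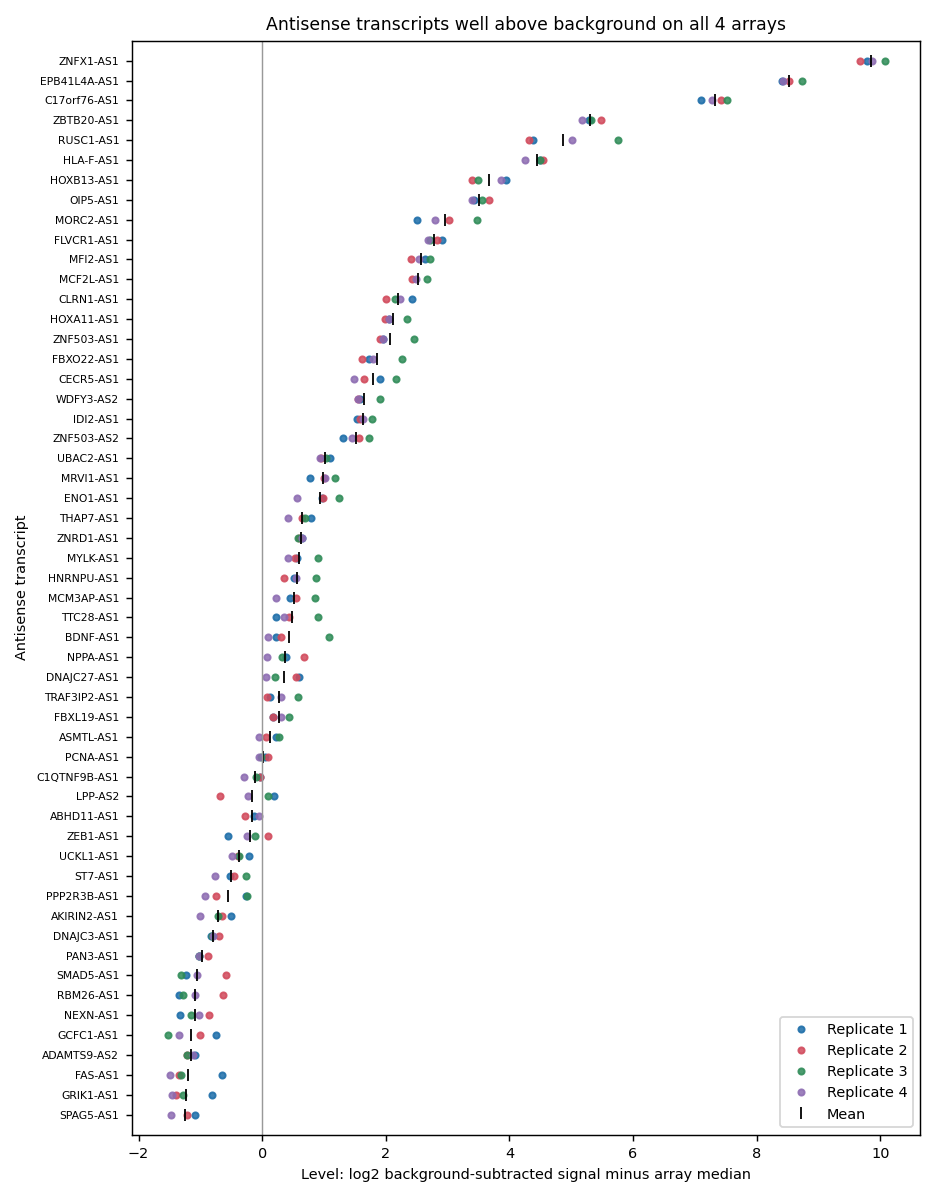
Level of each antisense transcript detected on all 4 arrays (horizontal axis, log2 background-subtracted signal minus the array median; one row per transcript), with 1 point per replicate array and a vertical tick at the mean. Of the 54 transcripts, 3 lie above a level of 7 and 18 have a mean below 0, and RUSC1-AS1 shows the widest distance between arrays.

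The names at the top of the listed levels are snoRNA hosts, where the level is the middle of the detected probes. HLA-F-AS1, at a level of 4.45, also had a probe brighter than that of EPB41L4A-AS1. The signals of this HLA-F-AS1 probe were 48169, 46922, 56566 and 42277. ZNFX1-AS1, now called ZFAS1, had signals of 67909, 57391, 75694 and 58945 on replicates 1 to 4, which is a level of 9.85 ± 0.17 (SD, n = 4). EPB41L4A-AS1 had signals of 26249, 25997, 29825 and 21722, a level of 8.52 ± 0.15. C17orf76-AS1, now SNHG29, had a level of 7.33 ± 0.19, which is the middle of 2 detected probes far apart in signal. With all its probes that had a positive signal the level was 4.13, so its place in the list rests on the probes used. None of these host levels spanned 1.4-fold between its highest and lowest array. For C17orf76-AS1 this describes the middle of its 2 detected probes. The dimmer of them, with signals of 1030, 1313, 1633 and 1009, spanned more than 1.4-fold. Only 4 of the 128 matched names hold a snoRNA gene within their span in the RefSeq table, and all 4 were detected. The fourth is HNRNPU-AS1, which is listed as HNRNPU.

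The sense genes of the hosts were detected as well. ZNFX1, an RNA helicase gene, had levels of 0.36, 0.26, -0.03 and -0.17, and EPB41L4A, which encodes a membrane-cytoskeleton protein, had levels of 1.60, 1.56, 2.03 and 1.70. Probes for the snoRNAs themselves were also lit. SNORD12C, inside ZNFX1-AS1, had signals of 2056, 1964, 1190 and 1500, and SNORD65, inside C17orf76-AS1, had signals of 582, 635, 600 and 450. SNORA13, inside EPB41L4A-AS1, had signals of 142, 132, 90.4 and 96.6. A snoRNA probe also matches the unspliced host transcript, so which RNA lit it cannot be told apart.

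The next names lie opposite genes of different kinds. ZBTB20-AS1, opposite the transcriptional repressor ZBTB20, had levels of 5.28, 5.48, 5.32 and 5.17, with all 4 arrays close together. HOXB13-AS1, the protein-coding PRAC2 next to the homeobox gene of the hindgut, had levels of 3.95, 3.40, 3.49 and 3.86, and HOXB13 itself had levels of 3.69, 3.88, 4.11 and 3.75. MORC2-AS1, opposite a chromatin-compacting ATPase, had levels of 2.51, 3.03, 3.48 and 2.80 and was highest on replicate 3. OIP5-AS1, a conserved RNA that binds microRNAs, had levels of 3.43, 3.67, 3.55 and 3.39, and OIP5, a centromere loading factor, had levels of 3.81, 4.22, 4.21 and 4.00.

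RUSC1-AS1 combined a high level with the largest spread of all 54, at 4.87 ± 0.67. Its signals were 1606, 1402, 3779 and 2053, so that replicate 3 stood 2.69-fold above replicate 2. RUSC1, a signalling adaptor whose start lies 92 bases from that of RUSC1-AS1, had levels of 4.81, 4.95, 4.32 and 4.64 and was lowest on replicate 3. The probe of RUSC1-AS1 is the exact complement of a probe for FDPS, an enzyme of cholesterol synthesis on the opposite strand, over all 55 bases that the probes share. The central 30 bases of both are printed to show that they read the same place from either side.
RUSC1-AS1, chr1:155290282-155290311 (hg19), minus strand: tgtggctgtaactgtcttcctcatattgca
FDPS, chr1:155290282-155290311 (hg19), plus strand: tgcaatatgaggaagacagttacagccaca

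The FDPS probe had signals of 77772, 72967, 76222 and 60616. The signal of RUSC1-AS1 was 2.07, 1.92, 4.96 and 3.39% of it, so it did not keep a fixed share of the FDPS signal. It was the only one of the 170 antisense probes with a run of at least 20 bases complementary to a probe of another name. Whether labelled product from the FDPS strand contributes to the RUSC1-AS1 signal was not tested.

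ENO1-AS1 was in turn the only antisense name with a probe that shares a run of at least 20 bases, on the same strand, with a probe of another name. Of its 60 bases, the 50 in capitals are identical to part of the probe of the unnamed transcript XLOC_000044.
ENO1-AS1, chr1:8939881-8939940 (hg19), plus strand: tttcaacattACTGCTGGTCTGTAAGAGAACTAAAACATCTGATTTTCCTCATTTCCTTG

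The signals of ENO1-AS1 were 150, 138, 167 and 93.5, and those of the XLOC_000044 probe were 160, 129, 180 and 123. Both spots were highest on replicate 3 and lowest on replicate 4, and ENO1-AS1 read 76.2 to 107% of the other probe. These are repeated readings of nearly the same sequence and not 2 transcripts.

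Several probes of 1 name did not always read alike. Of 29 antisense names with several probes, 11 (37.9%) had some probes detected and some not, beside 32.3% of all names with several probes. HLA-F-AS1, opposite a non-classical MHC class I gene, had 2 detected probes with signals of 48169, 46922, 56566 and 42277 for one and 62.5, 57.3, 44.4 and 35.1 for the other. Its level of 4.45 is the middle of these and describes neither. The RefSeq table places the pseudogene RPL23AP1 at one end of this locus, a copy of the gene for ribosomal protein L23a. Probes for RPL23A itself reached 247779 on replicate 3, and whether the bright HLA-F-AS1 probe also reads RPL23A or its copies was not tested.

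C17orf76-AS1 had a bright probe with signals of 108066, 111200, 102349 and 95145, a second with 1030, 1313, 1633 and 1009, and the third with 13.9, 98.0, 244 and 10.1. This last probe was well above background on 2 arrays only. TTC28-AS1 had 3 detected probes out of 4, and the fourth was well above background on no array. ZNF503-AS1 had 2 detected neighbouring probes, with 286, 228, 358 and 243 for one and 311, 303, 411 and 248 for the other, and both were highest on replicate 3. Its other probe read 12.6, 6.10, 56.4 and 7.43. The probes of OIP5-AS1 lay closer in signal, with 722, 806, 613 and 558 for one and 959, 993, 1108 and 793 for the other. On replicate 3 they parted, since the second was at its highest there and the first was not.

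**Figure D3:**
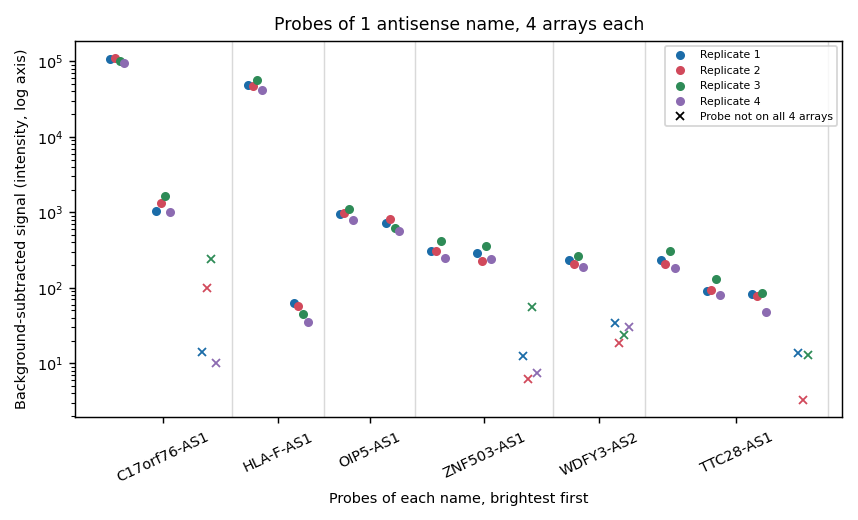
Background-subtracted signal (intensity, logarithmic vertical axis) of every probe of 6 antisense names, with 1 point per replicate array; crosses mark probes not well above background on all 4 arrays, and signals at or below 0 are not drawn. The probes of HLA-F-AS1 and C17orf76-AS1 lie far apart, whereas those of OIP5-AS1 lie between 558 and 1108.

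In 5 pairs only the antisense name was detected. ADAMTS9-AS2, opposite the metalloprotease gene ADAMTS9, had signals of 36.5, 30.3, 30.3 and 29.1, and the ADAMTS9 probe was below 0 on every array, between -9.71 and -3.06. GRIK1-AS1, opposite a kainate receptor subunit, had signals of 43.8, 26.5, 28.8 and 23.0 at 1 of its 2 probes, while GRIK1 lay between -5.86 and -4.02. In these 2 the sense gene was well above background on no array. CLRN1-AS1 and IDI2-AS1 had levels of 2.20 ± 0.17 and 1.63 ± 0.11, and their sense genes CLRN1 and IDI2 were well above background on 1 array each. C1QTNF9B-AS1, with a level of -0.12 ± 0.12, had a sense gene well above background on 2 arrays. A probe not well above background gives only a bound, so these sense genes may be transcribed below what the array can show.

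The reverse case, a detected sense gene with an undetected antisense name, included several transcripts known from development and cancer. TP73-AS1, NKX2-1-AS1 and AFAP1-AS1 were well above background on no array, while TP73, NKX2-1 and AFAP1 were detected. The AFAP1-AS1 probe was printed as 10 spots, with mean signals of 3.08, 1.86, 3.22 and 0.816. GNAS-AS1, an imprinted transcript, did not exceed a signal of 0.985 at either probe, beside up to 119448 at a GNAS probe. The GNAS probe nearest to it, 21.3 kb away, read between -3.31 and 2.51 and was well above background on no array. DSCAM-AS1 was well above background on no array and DSCAM on 1. DLX6-AS1, with signals from 19.5 on replicate 4 to 27.0 on replicate 1, was well above background on 2 arrays, and its sense gene DLX6 on none.

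Among the 25 names well above background on only some arrays, 6 had a probe that peaked on 1 array. SMARCA5-AS1, opposite a chromatin remodelling ATPase, had signals of 29.6, 386, 25.7 and 20.8, so that replicate 2 alone was high. H1FX-AS1, opposite a linker histone gene, had 19.7, 272, 6.96 and 6.83, again with replicate 2 high. ST7-AS2 had -3.65, -3.13, 6.82 and 98.1, with only replicate 4 high. None of these spots was marked as an outlier by the scanner software. BOK-AS1 had signals of 27.5, 30.3, 57.4 and 19.3 and was well above background on 3 arrays. Peaks on 1 array, above a signal of 30 and over 4 times the next array, occurred at 7 of 164 antisense probes with a value on all arrays (4.27%), beside 1.54% of all such probes (751 of 48610). The other 3 of the 6 names were MORC1-AS1, at 38.9 on replicate 3, and A1BG-AS1 and COL18A1-AS1, at 36.4 and 36.3 on replicate 2, and the remaining probe was one of the detected ZNF503-AS1. Sense probes for SMARCA5, H1FX, ST7, MORC1 and COL18A1 showed no such peak, with H1FX for example at 992, 961, 701 and 642. For A1BG, 1 of 2 probes was also raised on replicate 2, with signals of -4.74, 23.8, -2.02 and -1.57, and the other read 177, 150, 159 and 138.

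Between arrays, the detected antisense names had the same median spread as all names. Their median SD over the 4 arrays was 0.192, with quartiles of 0.128 and 0.281, and that of all detected names was also 0.192. A span of more than 1.4-fold between the highest and the lowest array was found for 25 of 54 (46.3%), against 39.4% of all detected names. With normexp background correction and quantile normalization the order turned, with 5 of 54 (9.26%) against 14.9%. With the processed signal the shares were 37.0 and 34.9%. Among names whose level lay between the quartiles of the antisense levels, the share was 53.8% for 26 antisense names and 43.4% for 6645 names in all. Replicate 3 held the highest level for 25 of the 51 antisense names with a level on every array (49.0%), as it did for 49.7% of all names. Replicate 4 held the highest level for none of the 51 and for 4.96% of all names. By array, the median deviation of the antisense names from their own mean was -0.03, -0.02, 0.14 and -0.09, and that of all detected names was -0.03, 0.02, 0.10 and -0.09. Replicate 3 held the lowest level for 4 of the 51 (7.84%) and for 23.4% of all names, and replicate 4 for 24 of the 51 (47.1%) and 35.1%. The antisense names thus shared the direction of the array-wide deviations on replicates 3 and 4, and their lowest levels fell on replicate 3 less often in number than those of all names, a difference that was not tested.

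After RUSC1-AS1, the widest spread was found for BDNF-AS1, with an SD of 0.44, and MORC2-AS1, with 0.41 and the levels given above. BDNF-AS1, opposite the neurotrophin gene BDNF, had levels of 0.23, 0.30, 1.08 and 0.10. Replicate 3 was high and the other 3 lay together, whereas BDNF had levels of 2.58, 2.96, 2.96 and 2.74. LPP-AS2 had levels of 0.19, -0.68, 0.09 and -0.23, lowest on replicate 2. FAS-AS1, opposite the death receptor gene FAS, had -0.65, -1.35, -1.32 and -1.49, highest on replicate 1. GCFC1-AS1, PPP2R3B-AS1, SMAD5-AS1, RBM26-AS1 and TTC28-AS1 completed the 10 largest SDs, which ended at 0.30, and the first 4 of these 5 lay below the median probe of the array. With all probes that had a positive signal, the SD of GCFC1-AS1 was 1.23 in place of 0.35 and that of GRIK1-AS1 1.22 in place of 0.29, since each then takes in a probe near background. At the other end, ZNRD1-AS1 varied little, with 0.64, 0.60, 0.58 and 0.64 at its detected probe, and PCNA-AS1, opposite the gene of the replication clamp PCNA, had 0.04, 0.10, -0.02 and -0.05. PCNA-AS1 and, above, ENO1-AS1 were named after their values were seen.

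Of the other transcripts known from earlier work, MCM3AP-AS1 had levels of 0.45, 0.54, 0.85 and 0.22, ZEB1-AS1 -0.55, 0.10, -0.12 and -0.24, and ST7-AS1 -0.52, -0.46, -0.27 and -0.76. ZEB1-AS1 was lowest on replicate 1 and the others on replicate 4. Their sense genes, MCM3AP of messenger RNA export, ZEB1 of epithelial-mesenchymal transition and ST7, were all detected.

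The difference between antisense and sense level on each array describes how the members of a pair varied against each other across the 4 samples. Its SD had a median of 0.276 over the 49 pairs, from 0.032 to 0.933, and the median SDs of the antisense and sense levels alone were 0.199 and 0.215. The SD of the difference was below that of the antisense name itself in 17 of 49 pairs (34.7%). A scaling shared by a whole array cancels in this difference, and in most pairs its SD did not fall below that of the antisense name. Levels that vary independently also give, on average, a difference with a larger SD than either level. The count therefore cannot show whether the members of the pairs moved together. Over the 49 pairs, the median deviation of the difference was 0.03, -0.12, 0.03 and 0.03 on replicates 1 to 4.

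The steadiest differences belonged to FBXO22-AS1 (SD 0.032), C17orf76-AS1 (0.081), ASMTL-AS1 (0.083), WDFY3-AS2 (0.096) and ZNF503-AS2 (0.111). The C17orf76-AS1 level is the middle of 2 detected probes far apart in signal. The brighter was at its highest on replicate 2 and the dimmer on replicate 3, so the small SD describes neither probe alone. FBXO22-AS1 had levels of 1.72, 1.62, 2.26 and 1.79, and FBXO22, which encodes an F-box protein of a ubiquitin ligase, had 1.92, 1.89, 2.47 and 2.03. Both were highest on replicate 3 and lowest on replicate 2. The FBXO22 level is the middle of 2 probes, of which one read 1940, 1817, 2091 and 1512 and the other 44.0, 37.3, 72.2 and 44.4. The brighter was at its lowest on replicate 4 and the dimmer on replicate 2. The small SD of this pair therefore describes neither FBXO22 probe alone. WDFY3-AS2 had levels of 1.59, 1.55, 1.91 and 1.55, and WDFY3, an adaptor of selective autophagy, had 1.10, 1.17, 1.65 and 1.14, so replicate 3 stood above the others in both. These WDFY3-AS2 levels come from 1 of its 2 probes. The other read 34.4, 18.8, 23.8 and 30.1, was well above background on 3 arrays and was not high on replicate 3. Without replicate 2 this probe enters and the level is 0.21 in place of 1.65. ASMTL-AS1 had levels of 0.23, 0.06, 0.27 and -0.06, and ASMTL 5.67, 5.66, 5.70 and 5.37. ZNF503-AS2 had 1.31, 1.56, 1.72 and 1.46, and the transcriptional repressor gene ZNF503 had 3.78, 4.00, 3.94 and 3.80.

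The least steady differences were those of RUSC1-AS1 (SD 0.933), FAS-AS1 (0.621), MORC2-AS1 (0.560), ZBTB20-AS1 (0.558) and TTC28-AS1 (0.532). Here the members of a pair moved apart. In RUSC1-AS1, MORC2-AS1 and TTC28-AS1 the antisense name was highest on replicate 3. RUSC1, MORC2 and TTC28 were at or near their lowest there, with levels of 3.00, 3.09, 2.63 and 2.63 for MORC2 and 2.57, 2.72, 2.20 and 2.75 for TTC28. In FAS-AS1 the antisense name was highest on replicate 1, where FAS, with levels from 2.03 to 2.74, was lowest. In ZBTB20-AS1 it was the sense gene that moved, with 3.85, 3.78, 4.91 and 3.97, and replicate 3 stood apart. With 4 arrays of 1 condition, no correlation between antisense and sense levels was computed.

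**Figure D4:**
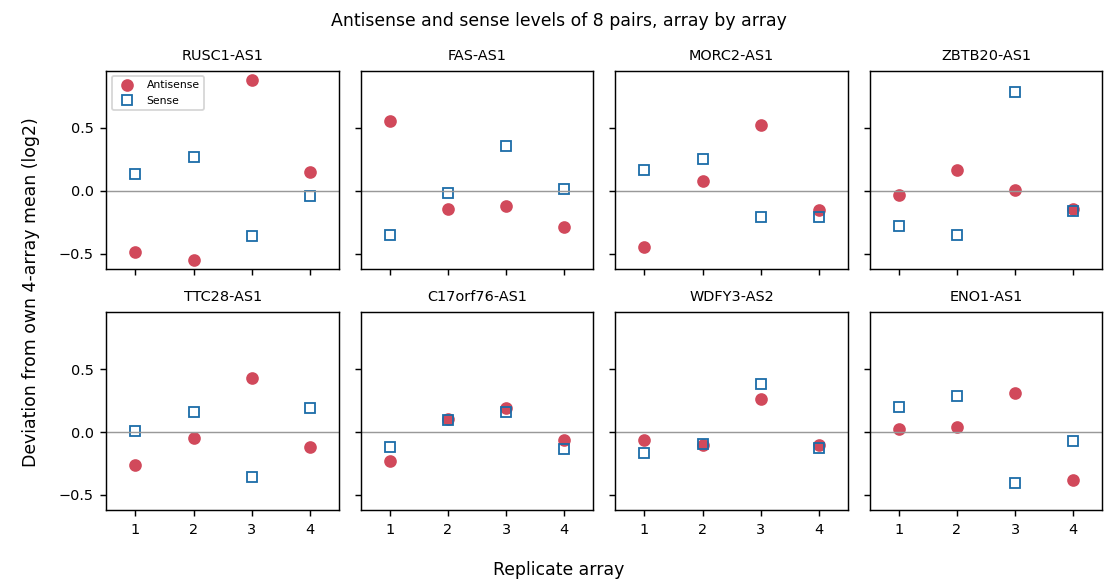
Deviation of antisense (filled circles) and sense (open squares) levels from their own mean over the 4 arrays (log2, vertical axis) on each replicate array (horizontal axis) for 8 pairs: the 5 with the largest SD of the difference, C17orf76-AS1 and WDFY3-AS2 from the 5 with the smallest, and ENO1-AS1. On replicate 3, RUSC1-AS1, MORC2-AS1, TTC28-AS1 and ENO1-AS1 lie above 0 and their sense genes below it.

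A single array set apart by Dixon's ratio was found for 3 of the 51 antisense names with 4 levels (5.88%), against 7.17% of all detected names. They were PAN3-AS1, WDFY3-AS2 and ZNF503-AS1. For 3 further names, ABHD11-AS1, MCF2L-AS1 and SPAG5-AS1, the only probe was an outlier spot on 1 array, so their levels rest on 3 arrays.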

How the data were processed

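RNA of the bafilomycin A1 samples was read on single-colour (Cy3) Agilent arrays. The authors deposited the scanner output of each array, written by Feature Extraction 10.7.3.1, with signals as linear intensity after background subtraction and no normalization between arrays. The deposited flags for spots well above background and for outliers were used as given. The unit of analysis was the gene name of the array design.

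From these files, control spots and outlier spots were left out, and spots of a probe were averaged. Then log2 was taken of signals above 0, and the median of these values over non-control probes was subtracted per array. For detection of a probe on an array, over 50% of its spots had to carry the flag. The level of a name is the median over its probes detected on all 4 arrays. A probe with an outlier spot was left out where the name had another such probe with values on all arrays, a choice made after seeing the data. Means are given with SDs over 4 arrays. No test was made, as there is 1 condition. Dixon's ratio at its 95% critical value marked 1 array as apart. These statistics were tested on simulated data. Members, prefix groups of sense genes, cell type markers and named genes were chosen with earlier results of these data known. Named were the 10 highest levels, the 10 largest SDs, and detected names whose sense gene was well above background on no array. The 5 steadiest and 5 least steady pairs and well-known transcripts were also named. So were up to 5 names with disagreeing probes and up to 5 with detection on some arrays only.

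Current symbols, biotypes and start distances came from RefSeq tables of GRCh38.p14, and probe coordinates from the files (hg19). Alternatives were another detection flag, all probes detected, outlier spots kept or not counted, Agilent's processed signal minus its 75th percentile, normexp with an offset of 50 and quantile normalization, all probes with a positive signal, a wider definition of the names, another symbol for the sense gene, and each array left out. Values counted as moved past 1 SD between replicates or between the values with 1 array left out, shares past their 95% exact binomial interval, and counts past 1.5-fold. Normexp was run in limma 3.58.1 under R 4.3.3. All else was done in Python 3.11.15, with matplotlib 3.10.9 for plots, scipy 1.17.1 for intervals, and pandas 2.3.3 and numpy 2.4.6 for tables. The untreated samples were not analysed here. Some items are not reported here.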

Additional observations from a re-analysis of the deposited data

Results flagged for a closer look

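Of the 51 antisense names with a level on all 4 arrays, 3 had 1 array farther from the others than Dixon's 95% critical value, where chance gives about 1 in 20. WDFY3-AS2 had a level of 1.91 on replicate 3, where the other arrays gave 1.55 to 1.59, at the 1 of its 2 probes that was detected. ZNF503-AS1 had 2.45 on replicate 3, where the other arrays gave 1.91 to 1.95. PAN3-AS1 had -0.87 on replicate 2, where the other arrays gave -1.03 to -1.02.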

How the results depend on the processing

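No paired analysis was possible because the arrays of only 1 group were analysed. The looser flag for a signal above background raised the detected antisense names to 84 (64.1%), the pairs with both members detected to 79 and all names to 67.5%, and lowered the pairs with only the sense gene to 33. Asking that all probes of a name be detected gave the sense gene in 71 of 130 pairs. It left 31 pairs with both and 12 with only the antisense name. The names detected were 43 antisense names (32.8%) and 45.7% of all names. With outlier spots not counted as detected these were 51 antisense names (38.9%) and 52.5% of all names. The antisense share was below that of all names under these 3 settings, but with the looser flag 67.5% lies within its exact 95% interval of 55.3 to 72.3%. Agilent's processed signal, less its 75th percentile, gave a median SD of 0.162, a median level of -1.89, which reflects the other centre, and a median deviation of 0.03 on replicate 4. Normexp with quantile normalization gave a median SD of 0.109, only 5 names past 1.4-fold (9.26%, against 14.9% of all names, the opposite order to the main setting), a median SD of the difference of 0.166 and a median deviation of 0.04 on replicate 3. With each array left out, the median SD ranged from 0.147 (without replicate 3) to 0.206, the names past 1.4-fold from 14 (without replicate 3) to 22, the median SD of the difference from 0.212 to 0.310, and the share of all names from 54.3 to 55.8%. Fewer arrays also lower a span by construction. The count of names past 1.4-fold thus moves without replicate 3 and with normexp and quantile normalization, which changes background correction, offset and scaling together, and the cause was not tested. Adding 5 names that end in -AS without a digit gave 58 detected. Of the 29 named detected transcripts, 19 levels and 21 SDs moved under normexp, 29 levels (through the other centre) and 8 SDs with the processed signal, 6 levels and 5 SDs with all positive probes, and none with outlier spots kept. With 1 array left out, 5 to 11 SDs moved, most without replicate 3, and 1 level moved without replicate 2 (WDFY3-AS2, to 0.21) and 2 without replicate 4. Most antisense names lie near background, where the signal limits what 4 arrays can show.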
